A study of Mus musculus with 6 samples.

Results

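The genes described here are those of the major histocompatibility complex (MHC) antigen presentation system of the mouse, called H2. The set held every row of the table whose symbol begins with H2-, together with B2m, Tap1, Tap2, Tapbp, Nlrc5, Psmb8, Psmb9, Psmb10, Ciita and Cd74. It came to 45 of the 35434 genes of the table, 34 on the class I side and 11 on the class II side. RNA of the large intestine was sequenced from mice with inflammatory bowel disease (IBD) that had received regulatory T cells (Tregs), either control cells or cells treated with lenvatinib, an inhibitor of several receptor tyrosine kinases. The 6 libraries are titled int 2 or int 3, 3 of each. Neither title names a transfer, and differences are given as int 3 minus int 2 without saying which of them got the treated cells. The strain, age and sex of the mice and the way IBD was induced are not given in the sources used here. Nothing says that each library is a different animal, and a p-value below covers only how these libraries vary. Within a group, values are listed in the order of the library numbers 1, 2 and 3.

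Class I molecules sit on nearly all nucleated cells and show peptides from inside the cell to CD8 T cells. Their heavy chain pairs with beta-2-microglobulin (B2m). Peptides are cut by the proteasome, whose immunoproteasome form carries Psmb8, Psmb9 and Psmb10, then pumped into the endoplasmic reticulum by Tap1 and Tap2 and loaded with the help of tapasin (Tapbp). Class II molecules show peptides from endosomes to CD4 T cells and are made mainly by B cells, dendritic cells and macrophages, and by intestinal epithelium under interferon gamma. They travel with the invariant chain (Cd74) and exchange its fragment for a peptide with the help of H2-M, which H2-O restrains. Transcription of the class I genes is raised by Nlrc5 and that of the class II genes depends on Ciita. Neither protein binds DNA by itself, and both are recruited to a set of promoter boxes named S, X and Y.

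Promoter stretches of class II genes are shown because the members divide below. Some differed strongly between the groups and others did not pass the test. Each stretch was placed by its Y box core, so that all 7 shown hold the core was fixed in advance. The sequences are those of RefSeq (GRCm38.p6, chromosome 17), not of these mice, while the expression table was made on another build, GRCm39. Of the 45 genes 37 with an entry were searched, 29 of class I and 8 of class II. Cd74 alone was left out because of its chromosome, and the other genes not searched had no entry. Each stretch holds 66 bases, 5′ to 3′, ends 10 bases past the first Y box core and lies before the start of transcription. H2-Aa (chr17:34287857-34287922) lies on the minus strand. H2-Eb1 (chr17:34305757-34305822), H2-Eb2 (chr17:34325524-34325589), H2-DMb1 (chr17:34153079-34153144), H2-DMb2 (chr17:34145108-34145173), H2-Oa (chr17:34092285-34092350) and H2-Ob (chr17:34238797-34238862) lie on the plus strand. Capitals mark the Y box core GATTGG and the X box searched as AGNAACNNATG, where N is any base.
H2-Aa: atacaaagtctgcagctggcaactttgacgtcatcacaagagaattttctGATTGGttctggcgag
H2-Eb1: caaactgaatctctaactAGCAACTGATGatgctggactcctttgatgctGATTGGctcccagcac
H2-Eb2: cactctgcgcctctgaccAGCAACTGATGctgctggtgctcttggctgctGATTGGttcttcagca
H2-DMb1: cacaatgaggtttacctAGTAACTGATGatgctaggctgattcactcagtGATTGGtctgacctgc
H2-DMb2: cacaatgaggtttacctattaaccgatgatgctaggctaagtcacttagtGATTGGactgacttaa
H2-Oa: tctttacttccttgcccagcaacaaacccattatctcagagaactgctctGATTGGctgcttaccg
H2-Ob: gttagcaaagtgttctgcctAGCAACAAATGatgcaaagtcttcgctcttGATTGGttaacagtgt
The core GATTGG was found on either strand in all 8 class II genes searched and in 20 of the 29 class I genes. Of all 27025 genes with a promoter window of 300 bases, 18.2% held it. In class I genes a match to these letters need not be the Y box. The X box letters are the bases shared by H2-Eb1, H2-Eb2, H2-DMb1 and H2-Ob at 30 to 33 bases before the Y box core. The matches in these 4 genes and their distances were therefore fixed in advance. No other of the 8 class II genes searched held the letters, nor did any of the 29 class I genes (1.04% of all genes with a window did). The letters of both boxes were chosen after the promoters had been read, and a match is a description of the letters only. No window was printed for Cd74, H2-Ab1 or Ciita, which were not searched, or for H2-DMa, which was.

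Promoters of the classical class I genes H2-K1 and H2-D1 and of the non-classical H2-Q4 are shown for comparison, with that of H2-T3, whose level varied in the opposite order across the int 3 libraries. H2-K1 (chr17:34000334-34000444) and H2-T3 (chr17:36190179-36190284) lie on the minus strand, and H2-D1 (chr17:35262937-35263046) and H2-Q4 (chr17:35379457-35379567) on the plus strand of the same build. Capitals mark AGTTTCACTT, a stretch of the class I interferon response element, and CCAATC, the letters GATTGG in reverse. Whether CCAATC serves as the Y box here was not tested. The letters attggg stand ahead of it, unmarked, in H2-K1, H2-D1 and H2-Q4.
H2-K1: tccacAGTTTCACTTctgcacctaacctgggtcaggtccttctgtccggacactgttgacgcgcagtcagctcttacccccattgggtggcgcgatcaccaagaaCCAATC
H2-D1: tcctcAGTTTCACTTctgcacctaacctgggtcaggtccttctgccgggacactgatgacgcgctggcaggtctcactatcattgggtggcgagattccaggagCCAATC
H2-Q4: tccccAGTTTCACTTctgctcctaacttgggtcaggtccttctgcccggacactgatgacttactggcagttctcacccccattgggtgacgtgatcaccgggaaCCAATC
H2-T3: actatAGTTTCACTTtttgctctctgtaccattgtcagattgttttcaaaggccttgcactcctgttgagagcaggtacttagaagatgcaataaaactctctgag
AGTTTCACTT was copied from the H2-K1 promoter, so its match there was fixed in advance. Matches in genes of like sequence are not independent of that choice. It was present on either strand in 8 of the 29 class I genes searched, H2-K1, H2-D1, H2-Q4, H2-Q6, H2-Q7, H2-Q10, H2-T22 and H2-T3. It was in 0 of the 8 class II genes searched and in 0.167% of all 27025 genes with a window. In H2-T3 the letters GATTGG were on neither strand of the 300 bases.

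The 6 libraries were of like depth and unlike spread. FPKM is the number of sequenced fragments scaled for gene length and library size. The steps of its low values gave back whole fragments, which summed over the tested genes to between 27843402 and 29262422 in a library. Among int 2 libraries the chi-square of these fragments averaged 2.83 for each degree of freedom, where sampling alone gives about 1, and among int 3 libraries it averaged 81.6. The test assumes 1 spread for both groups. The test, limma, was run for genes that reached FPKM 1 in 3 or more libraries, on log2(FPKM + 1), a scale that understates the change of low genes, and a gene rose or fell when its Benjamini-Hochberg adjusted p over the 12525 tested genes was under 0.05. Of all tested genes 15.3% were called, 8.64% higher and 6.7% lower in int 3.

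The sides of the system lay in opposite directions. Of 20 tested class I genes 4 rose in int 3, 0 fell (1 at an unadjusted p under 0.05 and 0 with voom, limma's method for counts, run on the whole fragments) and 16 did not pass, against 8.64% of all tested genes called higher. One of the 4, Nlrc5, entered the test only through its int 3 values, and without it 3 of 19 rose. Of the 11 class II genes, all tested, 5 fell, 0 rose (0 also at an unadjusted p under 0.05 and with voom) and 6 did not pass, against 6.7% of all tested genes called lower. The median log2 change was 0.33 over the tested class I genes and -0.93 over the class II genes, against 0.03 over all tested genes. Of the tested class I genes 16 had a log2 change above 0, and all 11 class II genes had one below 0. Int 3 lay above int 2 in every library for 13 class I genes (22.4% of all tested genes did so), and below it for 8 class II genes (17.9%). The plot of differences with their standard errors sets the 31 tested genes side by side.

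**Figure D1:**
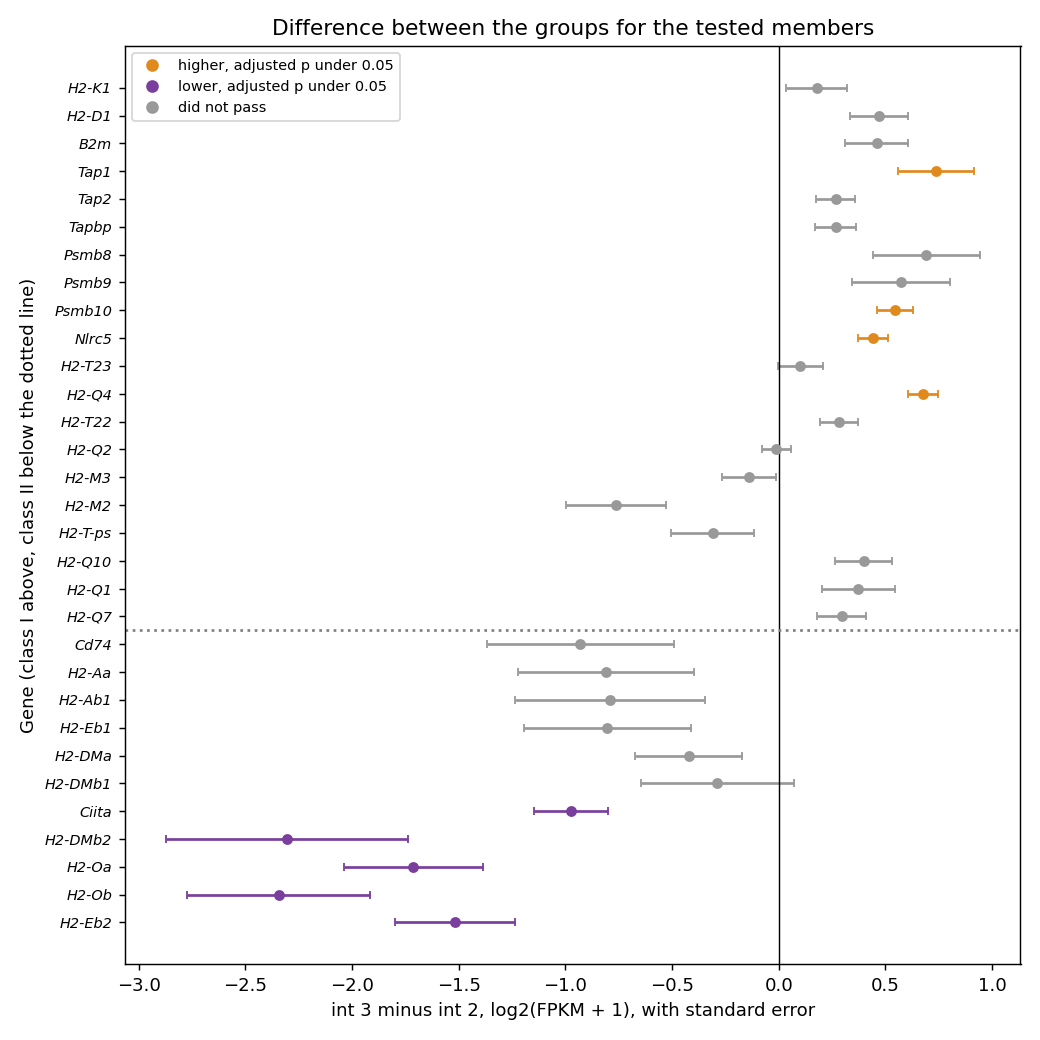
Difference between the groups (int 3 minus int 2 on the log2(FPKM + 1) scale, x axis) for the 20 tested class I genes (above the dotted line) and the 11 class II genes (below), with the standard error of the limma fit as bars. Tap1, Psmb10, Nlrc5 and H2-Q4 passed as higher, and Ciita, H2-DMb2, H2-Oa, H2-Ob and H2-Eb2 as lower, and all class II points lie left of 0.

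The int 3 libraries were also ordered among themselves, on both sides in the same way. Int 3-2 was the lowest of the int 3 libraries for 29 of the 31 tested genes, as it was for 30.1% of all tested genes. Int 3-3 was the highest for 28 of the 31 (29.5% of all tested genes), and int 3-1 lay between them for 28 of the 31 (73.5% of all tested genes). Int 3-1 was thus between int 3-2 and int 3-3 for most genes, and whether it varies independently of them was not tested. If it does not, the standard errors and p-values given here are too small. The median class I gene stood 0.31, 0.10 and 0.46 above the int 2 mean (log2) in int 3-1, int 3-2 and int 3-3. The median class II gene stood at -0.71, -1.84 and -0.12 in these libraries. Int 3-3 was thus the library with the highest class I values and also the one whose class II values lay nearest to int 2. Of the 9 genes called, H2-Q4 alone passed in every fit with 1 library left out. The other 8 did not pass when int 3-1 or any of the int 2 libraries was left out (limma adjusted p from 0.0557 to 0.152), and all 9 passed without int 3-2 and without int 3-3. Without int 3-2, 13 class I genes were called higher, against 11.4% of all tested genes, and 5 class II genes lower, against 9.59%. Without int 3-3, 5 class I genes were called higher, against 24.9% of all tested genes, which is about their own share, and 11 class II genes lower, against 14.3%.

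The class II chains that present peptide varied widely within int 3 and did not pass the test, with 1 exception. H2-Aa and H2-Ab1 encode the alpha and beta chains of the I-A molecule. H2-Aa stood at 244, 239 and 246 FPKM in int 2 against 160.4, 69.4 and 236 in int 3. Its log2 change was -0.81 (SE 0.41, limma adjusted p = 0.229). H2-Ab1 stood at 223, 219.9 and 222 FPKM in int 2 against 148, 61.2 and 229.9 in int 3 (log2 change -0.79, SE 0.45, limma adjusted p = 0.271). For both, int 3-2 held less than any other library, int 3-1 lay between, and int 3-3 stood at 97.1% and 104% of the int 2 mean. The beta chain gene H2-Eb1 followed the same order, with 143, 141 and 146 FPKM in int 2 and 92.0, 42.7 and 138 in int 3 (log2 change -0.80, SE 0.39, limma adjusted p = 0.211). Cd74, the invariant chain and the most abundant class II transcript per length, had 606, 593 and 596 FPKM in int 2 and 366, 152 and 552 in int 3 (log2 change -0.93, SE 0.44, limma adjusted p = 0.2). Without int 3-3, all 4 of these passed as lower (limma adjusted p from 0.0223 for H2-Eb1 to 0.0321 for H2-Ab1), in a fit that called 14.3% of all tested genes lower.

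The exception was H2-Eb2, a further beta chain gene of the E type at a much lower level. It stood at 3.30, 3.66 and 3.65 FPKM in int 2 against 0.563, 0.0579 and 1.41 in int 3. The int 3-2 value rests on 8 fragments, against 460 to 512 in the int 2 libraries. H2-Eb2 fell by 1.52 on the log2 scale (SE 0.28, limma adjusted p = 0.0181), and every int 3 library lay below every int 2 library. With pseudocounts of 0.1 and 0.01 it did not pass (limma adjusted p = 0.0617 and 0.0922).

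**Figure D2:**
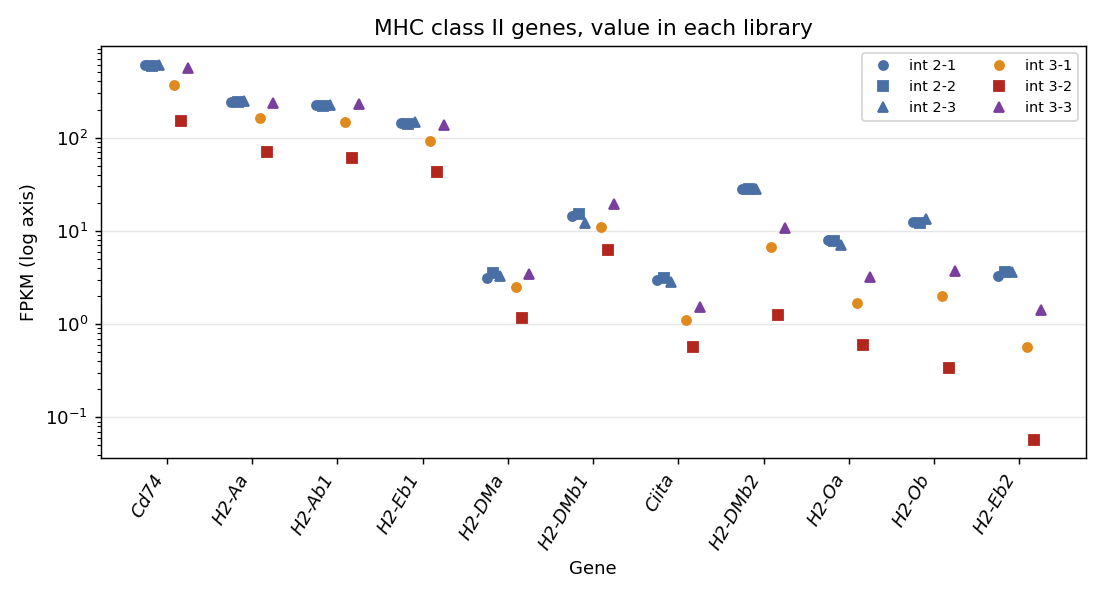
FPKM of the 11 class II genes (log axis) in each of the 6 libraries, int 2 in blue and the int 3 libraries each in a colour of its own. The 3 int 2 points of a gene nearly coincide, int 3-2 is the lowest library for every gene, and int 3-3 is at 92.3% to 141% of the int 2 mean for the 6 genes on the left, Cd74 to H2-DMb1.

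Genes of the loading step divided by chain. H2-M is made of H2-DMa and a beta chain from H2-DMb1 or H2-DMb2, and it catalyses the exchange of peptides. H2-DMa stood at 3.14, 3.51 and 3.29 FPKM in int 2 against 2.50, 1.15 and 3.42 in int 3 (log2 change -0.42, SE 0.25, limma adjusted p = 0.295). The fragments per FPKM give H2-DMa a counted length 6.48 times that of H2-DMb1, so its level cannot be set beside that of its partners. H2-DMb1 stood at 14.4, 15.0 and 12.2 FPKM in int 2 against 11.05, 6.23 and 19.6 in int 3 (log2 change -0.29, SE 0.36, limma adjusted p = 0.61), so that int 3-3 lay above and int 3-1 and int 3-2 below all int 2 libraries. H2-DMb2 went from 27.9, 28.1 and 27.8 FPKM in int 2 to 6.67, 1.25 and 10.6 in int 3. It fell by 2.31 on the log2 scale (SE 0.57, limma adjusted p = 0.043), with no overlap of the groups. It did not pass with pseudocounts of 0.1 and 0.01, without a filter or with the replicate number as a block (limma adjusted p up to 0.089). H2-DMb1 and H2-DMb2 are near copies, and how fragments fitting both were counted is not given in the sources used here.

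H2-O, an inhibitor of H2-M that is found mostly in B cells, was lower in both of its chains. H2-Oa stood at 8.07, 7.72 and 7.09 FPKM in int 2 against 1.70, 0.601 and 3.20 in int 3. It fell by 1.71 on the log2 scale (SE 0.33, limma adjusted p = 0.0196). H2-Ob stood at 12.35, 12.03 and 13.4 FPKM in int 2 against 2.01, 0.339 and 3.75 in int 3, and fell by 2.34 (SE 0.43, limma adjusted p = 0.0174). The highest int 3 library held 41.9% and 29.8% of the int 2 mean for the alpha and the beta chain, and the lowest held 7.88% and 2.69%. With a pseudocount of 0.01 H2-Ob did not pass (limma adjusted p = 0.0509).

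Ciita, the transactivator without which class II genes are hardly transcribed, lay between these gene groups. It stood at 3.00, 3.12 and 2.83 FPKM in int 2 against 1.11, 0.562 and 1.53 in int 3, and fell by 0.97 on the log2 scale (SE 0.17, limma adjusted p = 0.0157). All int 3 libraries were below all int 2 libraries, at 37.1%, 18.9% and 51.3% of the int 2 mean in int 3-1, int 3-2 and int 3-3.

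Ratios within a library show the division directly, and since they were chosen after the values were seen they are given without a test. With 3 libraries a group, an exact two-sided permutation test cannot go below p = 0.1. The ratio of H2-Aa to H2-Ab1 was 1.09, 1.09 and 1.11 in int 2 and 1.08, 1.14 and 1.03 in int 3, so that the pair kept nearly the same proportion over a range of levels of 3.76-fold within int 3 for H2-Ab1. H2-Ab1 to Cd74 was 0.369, 0.371 and 0.373 in int 2 and 0.405, 0.402 and 0.416 in int 3, higher in every int 3 library by a small step. H2-DMb2 to H2-DMb1 was 1.94, 1.87 and 2.27 in int 2 and 0.604, 0.201 and 0.541 in int 3. H2-Ob to Cd74 was 0.0204, 0.0203 and 0.0225 in int 2 and 0.00550, 0.00223 and 0.00680 in int 3, and H2-Eb2 to H2-Eb1 was 0.0231, 0.0259 and 0.0250 against 0.00612, 0.00136 and 0.0103. In these last 3 ratios the groups were far apart also in int 3-3, the library whose Cd74, H2-Aa, H2-Ab1 and H2-Eb1 were close to int 2.

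Of the marker lists, those of B cells and of T cells held the most genes that fell. Over all tested genes 8.64% were called higher and 6.7% lower. The 12 B cell markers listed, such as Cd79a and Ms4a1, all fell in limma's test, and none was at 0 in all libraries. Their FPKM summed to 180.3 to 188 in int 2 and to 32.6, 7.97 and 52.3 in int 3-1, int 3-2 and int 3-3, which is 17.8%, 4.34% and 28.5% of the int 2 mean. H2-Ob stood at 15.96%, 2.69% and 29.8% and H2-DMb2 at 23.9%, 4.47% and 38.0% of their int 2 means in the same libraries. Of 6 tested markers of dendritic cells (11 listed, none at 0 throughout), 1 rose, 1 fell and 4 did not pass, and the sum of all listed was 13.5 to 15.0 FPKM in int 2 and 10.5, 7.53 and 13.0 in int 3. Of 7 tested T cell markers (9 of 10 listed were in the table) 4 fell and 3 did not pass, with sums of 27.9 to 29.9 in int 2 and 12.4, 8.05 and 16.97 in int 3. Macrophage markers went the other way, with 6 of 10 higher and 4 that did not pass, and sums of 116 to 123 in int 2 and 178 to 192 in int 3. Of 10 epithelial markers 0 passed in limma's test (1 at an unadjusted p under 0.05, and 0 of the 8 that voom could be run on), and they summed to 5219 to 5262 FPKM in int 2 and to 5235 to 5789.5 in int 3. Keratins of high level carry this sum. Muc2, the mucin of goblet cells, named after its values were seen, stood at 94.2, 96.1 and 93.5 FPKM in int 2 against 274, 467 and 102 in int 3 (log2 change 1.31, limma adjusted p = 0.138), in the reverse order of the class II genes. Of the passing markers, Clec10a (dendritic cells, higher) and Fcgr1 (macrophages, higher) reached FPKM 1 in int 3 alone, and Fcer2a (B cells, lower) and Cd5 (T cells, lower) in int 2 alone. Without such genes 11 of 11 B cell, 3 of 6 T cell and 1 of 4 dendritic cell markers fell, and 5 of 9 macrophage markers rose. In bulk tissue fewer cells of a type and less RNA per cell cannot be told apart, and the part of these cells in the class II values was not tested.

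**Figure D3:**
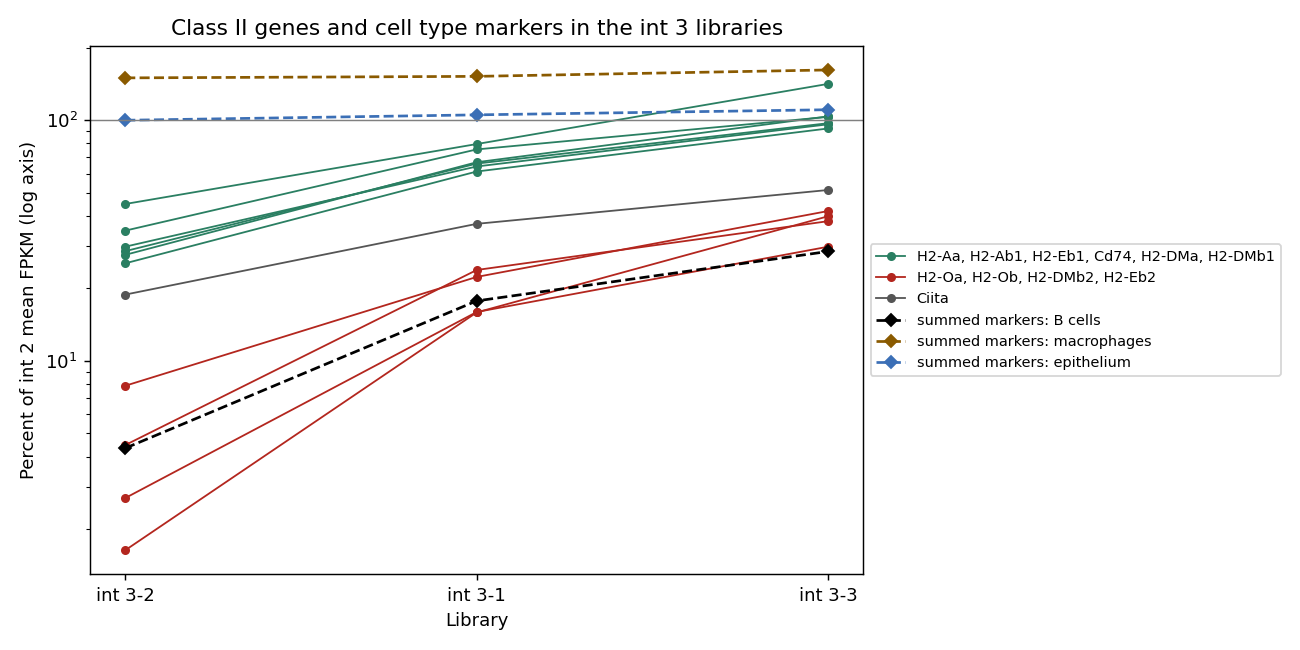
Level in each int 3 library as percent of the int 2 mean (log axis) for the 11 class II genes (solid lines) and for the summed markers of B cells, macrophages and epithelium (dashed lines). Lines join the values of 1 gene or list, and the libraries are placed by their class II level and have no order of their own. The B cell sum is at 4.34% in int 3-2 and 28.5% in int 3-3, where H2-Oa, H2-Ob, H2-DMb2 and H2-Eb2 are at 1.64% to 7.88% and 29.8% to 41.9%, and the other class II genes lie higher.

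The classical class I heavy chains were abundant, and neither of them passed the test. H2-K1 stood at 283, 293 and 289 FPKM in int 2 against 328, 265 and 399.8 in int 3, with int 3-2 below and the other two above int 2 (log2 change 0.18, SE 0.14, limma adjusted p = 0.43). H2-D1 stood at 394, 391 and 389 FPKM in int 2 against 553, 444 and 649 in int 3. All int 3 libraries were above int 2, and its log2 change of 0.47 (SE 0.13) missed the threshold (limma adjusted p = 0.0651). B2m, the common light chain, had 684, 684 and 688 FPKM in int 2 and 977, 751 and 1139.9 in int 3, again without overlap (log2 change 0.46, SE 0.15, limma adjusted p = 0.0898). With the values rescaled to TPM, which sets all libraries to the same sum, and with quantile normalization both H2-D1 and B2m passed as higher, without int 3-2 all 3 of these genes passed, and without int 3-3 H2-D1 alone.

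The light chain and H2-D1 kept their proportion across all 6 libraries. B2m to H2-D1 was 1.74, 1.75 and 1.77 in int 2 and 1.77, 1.69 and 1.76 in int 3. The proportion of the classical heavy chains differed between the groups. H2-D1 to H2-K1 was 1.39, 1.33 and 1.35 in int 2 and 1.69, 1.67 and 1.62 in int 3, so that the ratio hardly varied among the int 3 libraries although H2-K1 itself spanned 265 to 399.8 FPKM there. Both genes share long stretches of sequence, class I alleles differ between mouse strains, and the handling of shared fragments is not given in the sources used here, so levels and ratios of single heavy chains are uncertain.

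**Figure D4:**
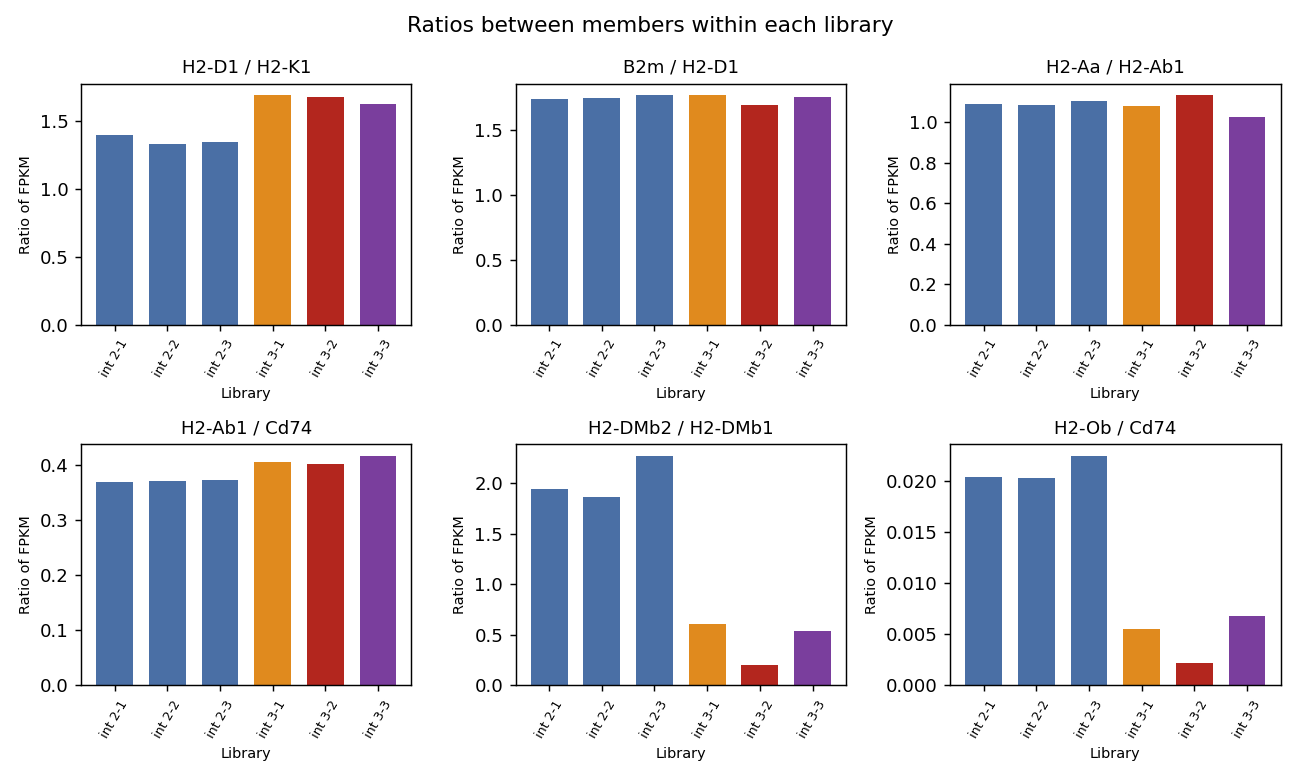
Ratio of the FPKM of member pairs in each of the 6 libraries (bars from 0, 1 bar a library). H2-D1 to H2-K1 is higher in all int 3 libraries, B2m to H2-D1 and H2-Aa to H2-Ab1 overlap between the groups, and H2-DMb2 to H2-DMb1 and H2-Ob to Cd74 are lower in all int 3 libraries.

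Of the peptide supply genes, 1 of 3 for loading and 1 of 3 of the immunoproteasome rose in int 3, and all 6 had every int 3 library above int 2. Over all tested genes 8.64% were called higher, and 22.4% had every int 3 library above int 2. Tap1, one of the transporter chains, stood at 9.96, 11.3 and 10.8 FPKM in int 2 against 17.5, 14.6 and 24.6 in int 3. It rose by 0.74 (SE 0.18, limma adjusted p = 0.0407). The call was lost without a filter, with median-of-ratios scaling, with quantile normalization, with voom and with the replicate number as a block (limma adjusted p up to 0.0826). Its partner Tap2 stood at 17.4, 16.4 and 17.1 FPKM in int 2 against 20.7, 18.2 and 23.3 in int 3 (log2 change 0.27, SE 0.09, limma adjusted p = 0.102). Tapbp, tapasin, which holds the heavy chain next to the transporter, stood at 63.2, 65.7 and 63.5 FPKM in int 2 against 77.5, 67.7 and 88.2 in int 3 (log2 change 0.27, SE 0.10, limma adjusted p = 0.116).

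Psmb10, a catalytic subunit of the immunoproteasome, rose from 84.5, 83.5 and 83.1 FPKM in int 2 to 122, 109.7 and 138 in int 3 (log2 change 0.54, SE 0.09, limma adjusted p = 0.0107). The other two catalytic subunits spread further. Psmb8 stood at 40.6, 39.4 and 41.0 FPKM in int 2 against 69.7, 43.8 and 92.9 in int 3 (log2 change 0.69, SE 0.25, limma adjusted p = 0.117). Psmb9 stood at 23.2, 24.3 and 23.6 FPKM in int 2 against 36.2, 24.96 and 50.3 in int 3 (log2 change 0.57, SE 0.23, limma adjusted p = 0.146). For both, int 3-2 was barely above int 2 while int 3-3 was at 230.2% and 212% of the int 2 mean. The constitutive subunits that these replace, Psmb5, Psmb6 and Psmb7, did not pass (limma adjusted p = 0.171, 0.484 and 0.112), and they were named after their values were seen. Psmb10 to Psmb7 was 0.668, 0.625 and 0.680 in int 2 and 0.869, 0.747 and 0.997 in int 3, whereas the ratios of Psmb8 to Psmb5 and of Psmb9 to Psmb6 overlapped between the groups.

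Nlrc5, the class I transactivator, behaved evenly within int 3. It stood at 0.715, 0.719 and 0.773 FPKM in int 2 against 1.34, 1.44 and 1.28 in int 3 and rose by 0.44 on the log2 scale (SE 0.07, limma adjusted p = 0.0108), while the ratio of the group means was 1.84. It was the only tested member at FPKM 1 or more in int 3 alone, so the filter let it in through the group where it was high. Without a filter, over 24866 genes, its limma adjusted p was 0.018. With the replicate number as a block it did not pass (limma adjusted p = 0.0642). Int 3-2, the lowest int 3 library for nearly all class I genes, was the highest for Nlrc5.

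**Figure D5:**
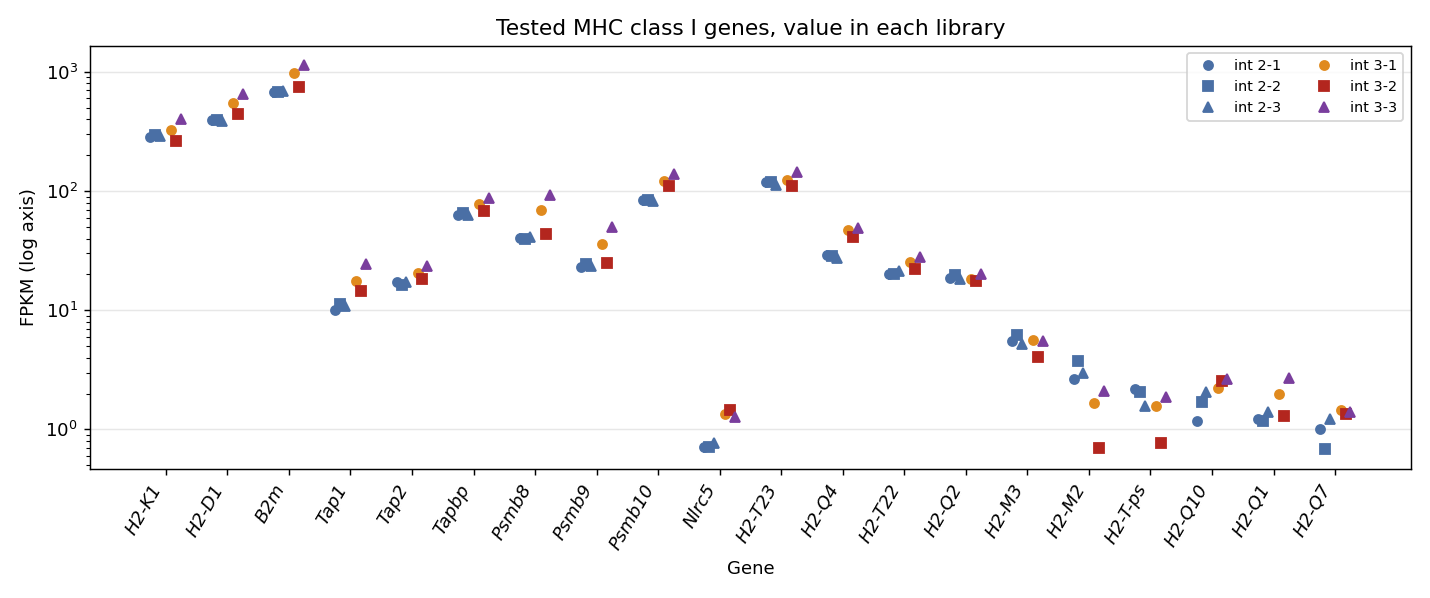
FPKM of the 20 tested class I genes (log axis) in each of the 6 libraries, int 2 in blue and each int 3 library in its own colour. For the loading and immunoproteasome genes every int 3 point lies above the int 2 points, with int 3-3 highest and int 3-2 nearest to int 2.

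Among the non-classical heavy chains 1 of 10 tested rose, 0 fell (1 at an unadjusted p under 0.05 and 0 with voom) and 9 did not pass. Over all tested genes 8.64% were called higher, which is about the share among these chains. H2-Q4, a heavy chain gene of the Q region, rose from 29.0, 28.5 and 27.3 FPKM in int 2 to 47.5, 41.5 and 48.8 in int 3 (log2 change 0.68, SE 0.07, limma adjusted p = 0.00291). It had the smallest p of all members, and it passed in each of the fits with another setting or with 1 library left out (limma adjusted p from 0.000333 to 0.0261). H2-T23, which encodes Qa-1, a ligand of receptors on natural killer cells, was the most abundant of these genes, at 119, 119.95 and 112 FPKM in int 2 and 124, 109 and 145 in int 3, and the groups overlapped (log2 change 0.10, SE 0.11, limma adjusted p = 0.542). H2-T22, whose product is bound by some gamma delta T cell receptors, stood at 20.25, 20.04 and 21.3 FPKM in int 2 against 25.5, 22.2 and 28.1 in int 3 (log2 change 0.28, SE 0.09, limma adjusted p = 0.0812).

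Other non-classical genes did not follow one direction. H2-Q2 stood at 18.4 to 19.7 FPKM in int 2 against 17.5 to 20.3 in int 3 (log2 change -0.01, SE 0.07, limma adjusted p = 0.928), although it lies in the same region as H2-Q4, and its sign turned to 0.06 with TPM. H2-M3, which presents peptides with a formyl group at their start, stood at 5.17 to 6.22 FPKM in int 2 against 4.04 to 5.62 in int 3 (limma adjusted p = 0.479). H2-M2 was the one class I gene below int 2 in every int 3 library, at 2.63, 3.73 and 2.96 FPKM in int 2 and 1.66, 0.698 and 2.09 in int 3 (log2 change -0.76, SE 0.23, limma adjusted p = 0.0775). It passed as lower without int 3-2 and without int 3-3. H2-T-ps, H2-Q1, H2-Q7 and H2-Q10 stood under 3 FPKM in all libraries and did not pass (limma adjusted p from 0.0989 to 0.317).

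H2-T3 had a pattern of its own. It encodes the thymus leukaemia antigen, a class I molecule of intestinal epithelium that binds CD8 alpha homodimers. It stood at 0.536, 0.506 and 0.497 FPKM in int 2 against 2.60, 6.22 and 0.223 in int 3, from 40, 38 and 37 fragments against 193, 461 and 17. Int 3-2 was thus the highest and int 3-3 the lowest of all libraries, the reverse of the order of most members. Only 2 libraries reached FPKM 1, so it was not tested. Hoxb13, which marks the far end of the gut and was named after its values were seen, had 285 to 288 FPKM in int 2 against 146, 16.4 and 267 in int 3. Within int 3 it thus had the order of the class II genes, which is the reverse of that of H2-T3. The part of intestinal position in the H2-T3 values and in the class II values was not tested.

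The remaining class I genes were scarce. Of the 34 class I genes 14 were not tested. Of these, 11 were under FPKM 1 in every library, 7 of them listed at 0 throughout. Those at 0 were H2-M1, H2-M11, H2-M10.2, H2-M10.3, H2-M10.4, H2-M10.5 and H2-M10.6, of a family known from the vomeronasal organ. H2-M9 of that family had 0, 1 and 0 fragments in int 2 against 3, 11 and 2 in int 3. H2-Q9 stood at 0.441 to 0.973 FPKM in int 2 and 0.734 to 1.68 in int 3, and H2-T24 at 0.709 to 0.912 and 0.876 to 1.05, with overlap of the groups for H2-Q9 and H2-T24. H2-Q6, H2-M5 and H2-M10.1 stayed under FPKM 0.5.

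Other genes of both pathways were counted as a background to the members. Of 14 class I pathway genes tested, 6 rose, 0 fell (0 also at an unadjusted p under 0.05 and with voom) and 8 did not pass, with a median log2 change of 0.26. Psme2, a subunit of the proteasome activator, rose by 0.44 and Tapbpl, a relative of tapasin, by 0.51 (limma adjusted p = 0.0103 and 0.0209). Of 15 class II pathway genes tested, 2 rose, 1 fell and 12 did not pass, with a median of -0.05. Over all tested genes 8.64% were called higher and 6.7% lower, and the class II pathway counts are near these shares. The lysosomal proteases Lgmn and Ctsb rose, Lgmn from 29.6, 29.97 and 29.7 FPKM to 59.1, 61.0 and 61.1 (log2 change 1.00, limma adjusted p = 0.000154) and Ctsb by 0.40 (limma adjusted p = 0.00256). Marchf1, a ubiquitin ligase that removes class II molecules from the cell surface, fell by 0.49 on the log2 scale (limma adjusted p = 0.0125), but it entered the test only through int 2, where it reached FPKM 1. Without a filter its limma adjusted p was 0.0203. Of 6 tested genes of class I-like proteins, such as Mr1, Cd1d1 and Fcgrt, 0 passed in limma's test, also at an unadjusted p under 0.05 and with voom.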

How the data were processed

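RNA of 6 large intestine libraries, int 2 and int 3 with 3 each, was grouped by the sample titles. The authors deposited 1 table of FPKM values with 35434 gene symbols, the unit taken from its name and values. Per the submitters' processing notes the reads were placed on GRCm39. Which aligner, counter and annotation were used, and what was done with shared fragments, is not given in the sources used here.

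A linear model of log2(FPKM + 1) on the group was run in limma 3.58.1 (R 4.3.3) for the 12525 genes that reached FPKM 1 in 3 or more libraries. Its moderated two-sided test used a mean-variance trend, with Benjamini-Hochberg adjustment over these genes and a threshold of 0.05. Whole fragments were recovered from the FPKM steps for 99.9% of the tested genes (deviation at most 0.02 fragments), which served for depth and for voom, an alternative chosen after the data were seen that called 1879 genes. The fit and the recovery were tested on simulated data. Figures were made with Python 3.11.15 and matplotlib 3.10.9.

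Every member at FPKM 1 or more in at least 1 library could be named, and for the other pathway genes up to 3 passing genes a direction. Values of some listed genes are not reported here. The members and lists were chosen with earlier results of these data known. Alternatives were other pseudocounts, filters and scalings, a replicate block and leaving out each library.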

Additional observations from a re-analysis of the deposited data

How the results depend on the processing

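The count of all genes called was 1921 and moved to 889 with the replicate number as a block and to between 615 and 4913 with 1 library left out. Its share of higher calls was 56.3%, 67.7% with TPM, 51.4% with median-of-ratios scaling, 48.5% with quantile normalization and 48.4% with voom, so that lower calls outnumbered higher ones with quantile normalization and voom. The class I genes called higher numbered 4, 9 with TPM (10.2% of all tested genes), 2 with the replicate block and 1 to 13 with 1 library left out (1 without int 2-1, int 2-2, int 2-3 or int 3-1, and 13 without int 3-2). The class II genes called lower numbered 5, 3 and 2 with pseudocounts of 0.1 and 0.01, 2 at a mean FPKM of 5 or more and 0 to 11 with 1 library left out (0 without int 2-1, int 2-2, int 2-3 or int 3-1, and 11 without int 3-3). The cause was not tested, except that at a mean FPKM of 5 or more fewer genes are tested. Signs turned for H2-Q2 with TPM (0.0574). With 1 library left out they turned for H2-Q2 (-0.0660 to 0.0344, above 0 without int 2-2 and without int 3-2), for H2-DMb1 (-0.669 to 0.0877, above 0 without int 3-2) and for H2-T23 (-0.00512 to 0.199, below 0 without int 3-3). In the report none of these 3 was called. Over the other results for single members, 380 fits left the call and its direction as reported, 45 lost a call and 25 gained one. Only the 9 called members could lose a call, and most of the 380 fits are of members that were not called. Same-numbered libraries did not deviate together (r = -0.01, 0.00 and -0.02 over genes for the numbers 1, 2 and 3), and 0 of 3 int 2 libraries correlated best with their own number. The int 2 libraries differed far less among themselves than the int 3 libraries did. These correlations therefore cannot decide whether same-numbered libraries are paired.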
